A study of Mus musculus with 8 samples.

Results

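Gap junction connexins were followed in RNA-seq libraries of cells sorted from the neonatal mouse cochlea. The 7 genes are *Gjb2*, *Gjb6*, *Gjb1*, *Gjb5*, *Gja1*, *Gjc1* and *Gjc3*. They were found by symbol in the annotation of the NCBIM37 (mm9) genome, and all 7 were among the 36536 genes counted and among the 20 mouse connexins. All mice were untreated and carried the *Lfng-GFP* BAC transgene (B6;FVB-Tg(Lfng-EGFP)HM340Gsat/Mmucd), in which *Lfng* regulatory sequence drives GFP in border, inner phalangeal, outer pillar and Deiters' cells. There were 4 groups of 2 replicate libraries each: cells with the strongest GFP signal (GFP+) and cells without it (GFP-), both taken at postnatal day 1 (P1) and at P6. GFP- cells were a mixture of the remaining cells of the dissected cochlea, and at P6 the dissection left some of the lateral wall and of Reissner's membrane in place. The sources do not say which animals went into which library, so p-values measure the spread between these libraries, which may be technical.

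Connexins assemble in groups of 6 into a hemichannel, and hemichannels of neighbouring cells dock to form a gap junction channel that passes ions and small molecules. In the cochlea, supporting cells are joined to each other by gap junctions built mainly of Cx26 and Cx30, the products of *Gjb2* and *Gjb6*, and a separate network joins the fibrocytes and the basal and intermediate cells of the lateral wall. Both networks are held to take part in potassium recycling and in the passage of metabolites, and mutations of *GJB2* are a frequent cause of inherited deafness. *Gja1* encodes Cx43, a connexin of many connective tissue and epithelial cells, and *Gjc1* encodes Cx45, known from vascular smooth muscle, the heart conduction system and neurons. *Gjc3* encodes Cx29 of myelinating glia, *Gjb1* encodes Cx32 of Schwann cells and hepatocytes, and *Gjb5* is known from skin and placenta.

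The members lie on 6 chromosomes in NCBIM37. *Gjb2* (chr14:57717437-57723539, minus strand) and *Gjb6* (chr14:57742140-57752448, minus strand) are neighbours, with 18600 bases between them. *Gja1* is at chr10:56097106-56110225 (plus strand), *Gjb1* at chrX:98571717-98580968 (plus strand) and *Gjb5* at chr4:127032053-127035425 (minus strand). *Gjc1* is at chr11:102660893-102681014 and *Gjc3* at chr5:138395037-138404187, both on the minus strand. No exon of a member overlapped that of another annotated gene. The longest run of bases that a member's transcripts shared with any other connexin was 42, between *Gjc3* and *Gje1*, and *Gjb2* and *Gjb6* shared at most 20, both shorter than the sequenced reads of 100 bases.

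The 250 bases upstream of the RefSeq start are shown for *Gjb2* and *Gjb6*, the adjacent genes whose levels moved together, and for *Gjc3*, whose levels did not follow them. The RefSeq table was of the GRCm38.p6 assembly, it held a promoter for 6 of the 7 members, and each sequence was placed on NCBIM37 by an exact match. Capitals mark matches, on either strand, to 4 short motifs: the GC box GGGCGG, the TATA box TATAAA, the CCAAT box CCAAT and the sequence TGGGAA. No match overlapped another.
Gjb2: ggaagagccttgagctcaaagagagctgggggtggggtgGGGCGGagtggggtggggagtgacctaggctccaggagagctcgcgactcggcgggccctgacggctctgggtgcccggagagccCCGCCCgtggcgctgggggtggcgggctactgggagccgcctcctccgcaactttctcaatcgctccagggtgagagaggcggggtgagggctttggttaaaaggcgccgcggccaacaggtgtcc
Gjb6: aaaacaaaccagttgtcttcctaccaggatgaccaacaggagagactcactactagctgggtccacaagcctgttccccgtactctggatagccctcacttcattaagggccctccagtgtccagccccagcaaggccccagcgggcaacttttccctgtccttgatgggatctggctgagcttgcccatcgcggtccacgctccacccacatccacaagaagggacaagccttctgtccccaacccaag
Gjc3: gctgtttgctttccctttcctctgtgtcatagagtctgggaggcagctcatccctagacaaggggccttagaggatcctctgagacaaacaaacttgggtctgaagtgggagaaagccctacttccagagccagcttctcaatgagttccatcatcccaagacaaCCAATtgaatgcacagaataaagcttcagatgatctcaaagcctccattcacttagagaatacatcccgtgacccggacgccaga
The *Gjb2* window (chr14:57723540-57723789, minus strand) was 69.2% G or C with 18 CpG dinucleotides, against medians of 52.4% and 6 over 32851 mouse promoters of the same length. It held 2 GC boxes, which begin 211 and 126 bases before the start. The *Gjb6* window (chr14:57752449-57752698, minus strand) was 56.8% G or C with 5 CpG dinucleotides, and none of the 4 motifs was found in it. The *Gjc3* window (chr5:138404327-138404576, minus strand) held 1 CCAAT box, which begins 85 bases before the start. Of all promoters, 32.7% held GGGCGG, 33.8% held CCAAT, 12.4% held TATAAA and 21.6% held TGGGAA. The upstream windows of *Gjb2* and *Gjb6* thus had no motif of these 4 in common.

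Libraries held between 17769024 and 67695039 counts on genes. A level is given as CPM, the count of the gene scaled by the library's total over all genes, and levels of different genes are compared only as RPKM, the CPM per kilobase of annotated exon. The sort was checked with 7 supporting cell markers. Their summed CPM was 5233 to 8471 in GFP+ libraries and 241 to 394 in GFP- libraries. *Lfng* itself was at 2365 to 3755 CPM in GFP+ and 17.2 to 45.8 CPM in GFP- cells. Hair cell markers were also present in the GFP+ libraries, at 398 to 778 summed CPM against 339 to 455 in GFP- libraries. The sums hide differences of single genes. The P1 comparison of fractions had 4 of 6 markers higher in GFP+ (p and p-adj below 0.01 by edgeR), 3 past a 4-fold change. The P6 comparison had 3 of 6 higher, each past a 4-fold change, and neither comparison had any lower. The median log2 fold change over the 6 markers was 2.58 for P1 and 1.81 for P6. The library P6 GFP+ replicate 2 stood apart. In it, the summed supporting cell markers were at 0.732 of their level in replicate 1, although 2 of the 7 were higher. Markers of fibrocytes and mesenchyme (7 of 7 higher, 3.47 times) and stria marginal cells (4 of 4, 7.83 times) exceeded replicate 1. So did those of endothelial cells (5 of 5, 3.88 times) and osteoblasts (6 of 6, 3.84 times). Schwann and satellite glia markers (7 of 8, 2.16 times) were higher too.

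*Gjb2* and *Gjb6* made up nearly all connexin RNA of the GFP+ cells. There *Gjb2* was at 172 ± 20.6 RPKM at P1 (SD, n = 2) and 459 ± 68.5 RPKM at P6, and *Gjb6* was at 46.1 ± 1.24 and 157 ± 29.8 RPKM. *Gjb2* contributed 75.0 ± 1.35% of the summed RPKM of the 20 connexins at P1, against 71.8 ± 1.05% at P6, and *Gjb6* contributed 20.2 ± 1.52% and 24.5 ± 1.36%. In GFP- cells the share of *Gjb2* was 43.5 ± 7.68% at P1 and 58.9 ± 5.49% at P6, and the share of *Gjb6* was 11.5 ± 0.897% and 15.4 ± 1.68%. The shares of *Gjb2* in the 4 GFP+ libraries, and likewise those of *Gjb6*, did not overlap those in the 4 GFP- libraries. The summed RPKM of the family was 245 and 212 in the P1 GFP+ libraries, 108 and 127 in the P1 GFP- libraries, 700 and 578 in the P6 GFP+ libraries and 201 and 168 in the P6 GFP- libraries. No test was made of these shares.

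**Figure D1:**
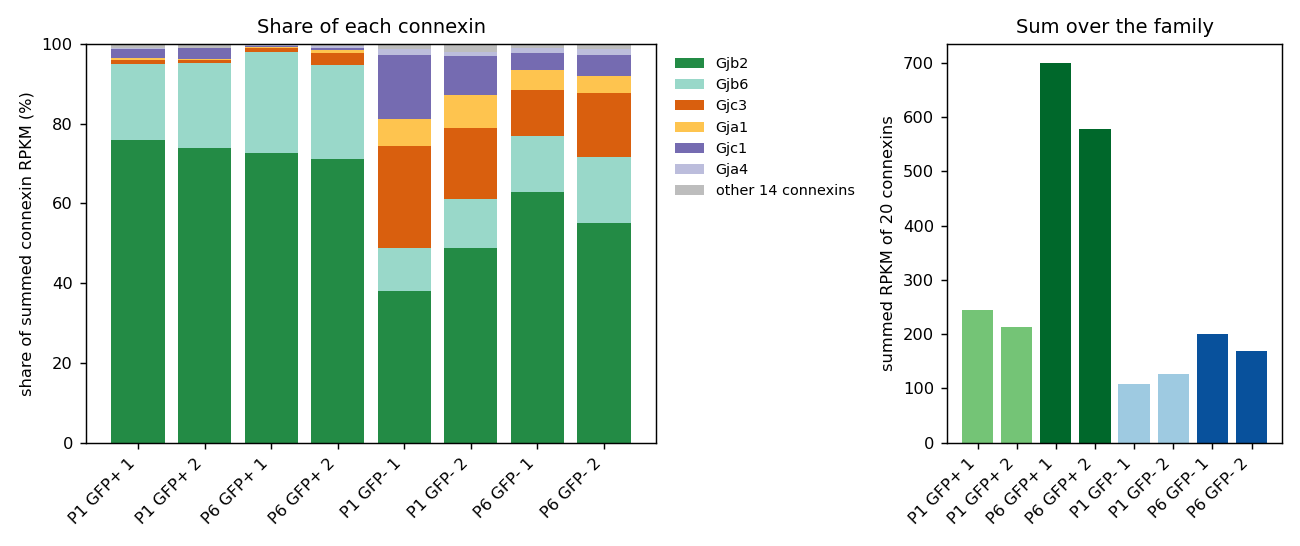
Left, share of each connexin in the summed RPKM of 20 connexins (percent) in each of the 8 libraries, stacked to 100; right, the summed RPKM per library. *Gjb2* and *Gjb6* fill over 90% of each GFP+ bar, whereas *Gjc3*, *Gja1* and *Gjc1* take visible parts of each GFP- bar, and the sum was highest in the P6 GFP+ libraries (700 and 578 RPKM).

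The order of the other members differed between the fractions. In P1 GFP+ cells *Gjc1* followed them at 5.59 ± 0.191 RPKM, and after it came *Gjc3* at 1.95 ± 0.850, *Gjb1* at 1.31 ± 0.224 and *Gja1* at 0.834 ± 0.0629 RPKM. The values of *Gjc3* and *Gjb1* overlapped between libraries there. In P1 GFP- cells *Gjc3* came second at 25.2 ± 3.56 RPKM, after *Gjb2* at 51.7 ± 14.9 RPKM. *Gjc1* at 15.0 ± 3.38 and *Gjb6* at 13.6 ± 2.61 RPKM overlapped, and *Gja1* followed at 8.86 ± 2.36 RPKM. In P6 GFP+ cells *Gjc3* followed them at 12.5 ± 7.67 RPKM, and *Gja1*, *Gjc1* and *Gjb1*, at 2.41 ± 2.36, 2.16 ± 0.709 and 1.61 ± 0.273 RPKM, were not separated by their spread. In P6 GFP- cells *Gjb2* at 109 ± 23.6 RPKM was followed by *Gjb6* at 28.3 ± 0.420 and *Gjc3* at 24.8 ± 2.94 RPKM, and *Gja1* at 8.89 ± 2.18 and *Gjc1* at 8.46 ± 0.379 RPKM overlapped. *Gjb5* was last in every group.

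**Figure D2:**
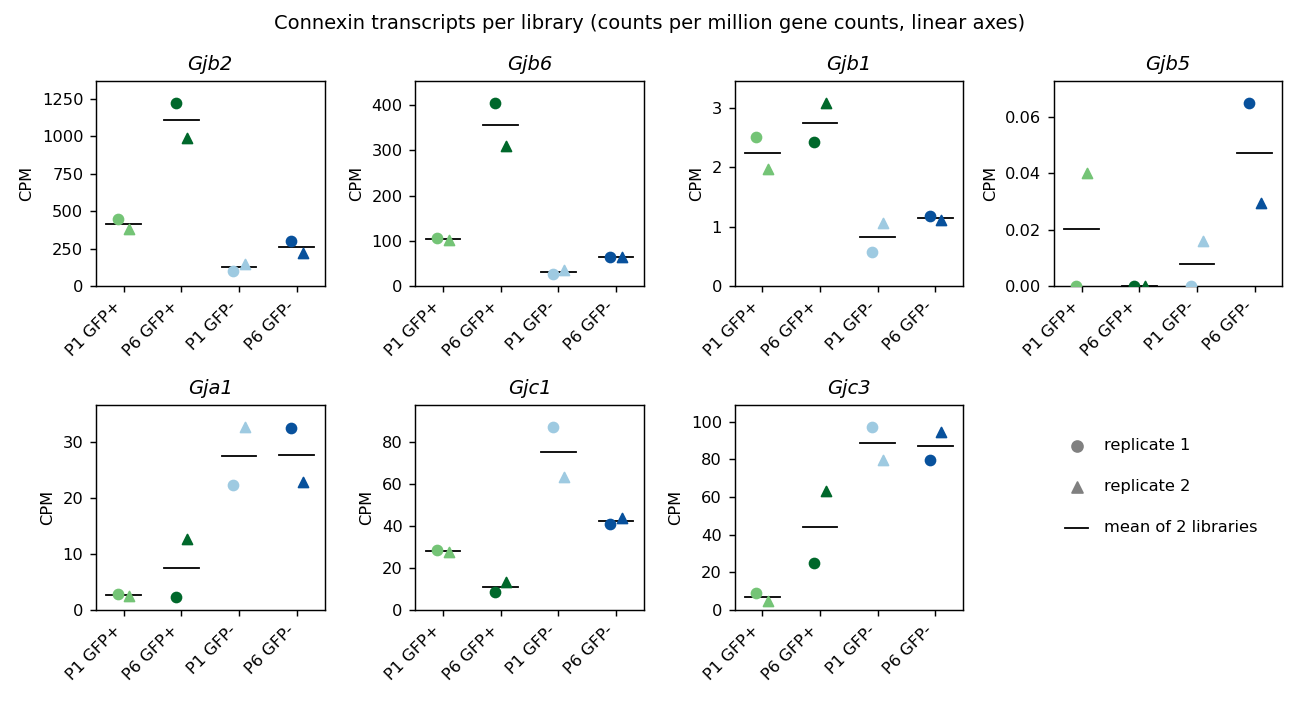
CPM of the 7 connexins (linear vertical axis from 0, scaled for each gene) in the 4 groups; circles are replicate 1, triangles replicate 2 and bars the mean of 2 libraries. *Gjb2* and *Gjb6* are highest in both P6 GFP+ libraries, *Gja1*, *Gjc1* and *Gjc3* are higher in GFP- than in GFP+ cells of the same age, and the P6 GFP+ replicates of *Gja1* (2.31 and 12.7 CPM) and *Gjc3* (24.9 and 63.1 CPM) lie far apart.

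The GFP+ and GFP- fractions of P1 cochleas were compared to find which connexins mark supporting cells just after birth. Of the 6 members with enough counts to be tested, *Gjb2* and *Gjb6* were higher in P1 GFP+ cells and *Gja1*, *Gjc1* and *Gjc3* were lower (p and p-adj below 0.01 by edgeR), while *Gjb1* did not pass. Over all 18682 genes tested, 16.6% passed as higher and 20.7% as lower. The median log2 fold change was 0.11 over the 6 members and 0.01 over all genes.

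*Gjb2* was at 448 and 378 CPM in the P1 GFP+ libraries and at 99.1 and 150 CPM in the P1 GFP- libraries. The fractions did not overlap. The log2 fold change was 1.84 ± 0.22 (SE, n = 2 per group, p-adj = 0.000864 by edgeR). *Gjb6*, at 107 and 103 CPM against 26.6 and 34.9 CPM, was enriched to the same degree, with a log2 fold change of 1.87 ± 0.14 (p-adj = 0.000162 by edgeR). Neither reached the 4-fold difference that 6.46% of all genes tested exceeded as higher. The higher *Gjb2* level in P1 GFP- replicate 2 went with higher markers of the inner sulcus and Kölliker's organ, a neighbouring epithelium. Their summed CPM was 832 in replicate 1 and 2749 in replicate 2, and 3638 and 3389 in the P1 GFP+ libraries. These sums hide differences of single genes. Of the 4 markers, 0 passed as higher in P1 GFP+ cells and *Epyc* passed as lower, past a 4-fold change. The median log2 fold change over the 4 was 0.07. Markers of neurons (151 and 517 CPM), supporting cells (241 and 394 CPM) and stria marginal cells (80.1 and 180 CPM) were also higher in GFP- replicate 2. So were glia markers (826 and 885 CPM), and the other marker lists were lower. The part of these cell types in the result was not tested. In bulk libraries such as these, fewer cells of a type and less RNA per cell cannot be told apart.

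*Gja1* and *Gjc3* differed most between the P1 fractions. *Gja1* was at 2.73 and 2.45 CPM in GFP+ cells and at 22.3 and 32.7 CPM in GFP- cells. On the log2 scale the difference was -3.29 ± 0.24 (p-adj = 0.000125 by edgeR). *Gjc3* was at 8.97 and 4.74 CPM in GFP+ cells and at 97.4 and 79.7 CPM in GFP- cells. On the log2 scale the difference was -3.54 ± 0.31 (p-adj = 0.000259 by edgeR). Both were past a 4-fold change, as were 11.4% of all genes tested in the same direction. *Gjc1* was at 28.6 and 27.3 CPM in GFP+ cells and at 87.1 and 63.2 CPM in GFP- cells. It was lower in GFP+ cells by a smaller step, with a log2 fold change of -1.32 ± 0.17 (p-adj = 0.00125 by edgeR), and missed the threshold without P1 GFP+ replicate 2 (p-adj = 0.0125 by edgeR), in a fit in which 3716 of 19522 genes passed, against 6972 of 18682 with all 4 libraries.

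The P1 GFP- cells held markers of the cell types in which *Gja1* and *Gjc3* are known. Schwann and satellite glia markers were at 826 and 885 summed CPM in GFP- and at 435 and 368 in GFP+ libraries. Of these 8 genes, 6 were lower in GFP+ cells, and *Sox10*, which supporting cells also express, was higher. Markers of fibrocytes and mesenchyme were at 15191 and 13251 summed CPM in GFP- and at 292 and 273 in GFP+ libraries, with 6 of 7 lower in GFP+ cells. None of the markers of these 2 lists was at 0 in any group. Their part in the levels of *Gja1* and *Gjc3* was not tested.

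*Gjb1* and *Gjb5* were scarce. *Gjb1* was at 2.51 and 1.97 CPM in P1 GFP+ and at 0.581 and 1.06 CPM in P1 GFP- cells (115, 49, 22 and 67 counts). The fractions did not overlap, yet the log2 fold change of 1.53 ± 0.38 did not pass (p-adj = 0.0168 by edgeR). At P6 it was at 2.42 and 3.08 CPM against 1.18 and 1.11 CPM, with a log2 fold change of 1.26 ± 0.32 (p-adj = 0.0325 by edgeR). *Gjb1* was above its GFP- level in every GFP+ library of both ages. With all 8 libraries in the fit the P1 difference passed (p-adj = 0.00951 by edgeR), beside 31.5% of all genes. With no filter on low counts it passed too (p-adj = 6.28e-05 by edgeR), beside 34.1% of all genes. Without P1 GFP- replicate 1, and likewise without replicate 2, the P1 difference passed, in fits in which 9777 of 19453 and 9798 of 19105 genes passed. Without P1 GFP+ replicate 1 or 2 it did not pass (p-adj = 0.119 and 0.0477 by edgeR). *Gjb5* had 0 to 4 counts in each library and was removed by the filter on low counts in every comparison. In P6 GFP+ cells it had 0 counts, which allows up to 0.169 CPM in replicate 1 and 0.100 CPM in replicate 2, for counting error only.

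At P6 the same question was asked of the older supporting cells. Of 6 members tested, *Gjb2* and *Gjb6* were higher in P6 GFP+ cells and *Gjc1* was lower, and *Gja1*, *Gjc3* and *Gjb1* did not pass. Over all 18294 genes tested, 7.72% passed as higher and 5.19% as lower. *Gjb2* and *Gjb6* were also past a 4-fold change, as were 4.88% of all genes tested, and no member was past it as lower, as were 3.1%. The median log2 fold change was 0.13 over the members and -0.02 over all genes.

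*Gjb2* was at 1222 and 989 CPM in P6 GFP+ cells and at 303 and 223 CPM in P6 GFP- cells. On the log2 scale the difference was 2.07 ± 0.27 (p-adj = 0.00496 by edgeR). *Gjb6* was at 404 and 309 CPM against 64.9 and 63.5 CPM, a log2 fold change of 2.47 ± 0.22 (p-adj = 0.00168 by edgeR). *Gjc1* was at 8.27 and 13.3 CPM in GFP+ and at 41.0 and 43.7 CPM in GFP- cells. On the log2 scale the difference was -1.97 ± 0.25 (p-adj = 0.00454 by edgeR). In each of these 3 genes both GFP+ libraries lay on the same side of both GFP- libraries. The share of all genes with such a separation was not counted. All 3 calls were lost when either P6 GFP- library was left out, which leaves 1 GFP- library in the fit. Of all genes, 366 of 18188 passed by edgeR without replicate 1 and 0 of 18019 without replicate 2 (5144 with an unadjusted p below 0.05), against 2363 of 18294 with all 4 libraries. In those fits the p-adj of the 3 genes was 0.0146 to 0.0472 by edgeR. The log2 fold changes of *Gjb2* stayed between 1.85 and 2.37 over all alternatives, those of *Gjb6* between 2.29 and 2.67, and those of *Gjc1* between -2.33 and -1.65.

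*Gja1* and *Gjc3* depended on which P6 GFP+ library was used. *Gja1* was at 2.31 CPM in P6 GFP+ replicate 1, as low as in P1 GFP+ cells, and at 12.7 CPM in replicate 2, against 32.4 and 22.8 CPM in P6 GFP- cells. The log2 fold change was -1.87 ± 0.69 (p-adj = 0.0891 by edgeR). Without replicate 2 it was -3.56 ± 0.28 (p-adj = 3.99e-08 by edgeR), and without replicate 1 it was -1.10 ± 0.21 (p-adj = 0.000643 by edgeR), so that the call passed with either library alone and failed with both. *Gjc3* was at 24.9 and 63.1 CPM in P6 GFP+ cells and at 79.9 and 94.5 CPM in P6 GFP- cells, with no overlap. Its log2 fold change was -0.996 ± 0.41 (p-adj = 0.115 by edgeR) and ranged from -1.79 to -0.441 over all alternatives. Without replicate 2 it was -1.79 ± 0.17. In those fits the remaining GFP+ library is assumed to vary as the GFP- libraries do, and 5654 of 19334 genes passed without replicate 1 and 7765 of 19183 without replicate 2.

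In P6 GFP+ replicate 2, *Gja1* was 5.50 times and *Gjc3* 2.53 times its level in replicate 1, *Gjc1* was at 1.61 times, and *Gjb2* and *Gjb6* were at 0.809 and 0.764 times. Over the same libraries the summed markers of fibrocytes and mesenchyme went from 790 to 2740 CPM, those of stria marginal cells from 24.8 to 194 CPM and those of Schwann and satellite glia from 1207 to 2603 CPM. The glia markers of replicate 2 were above those of both P6 GFP- libraries (1555 and 1861 CPM). The part of these cell types in the connexin levels was not tested.

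**Figure D3:**
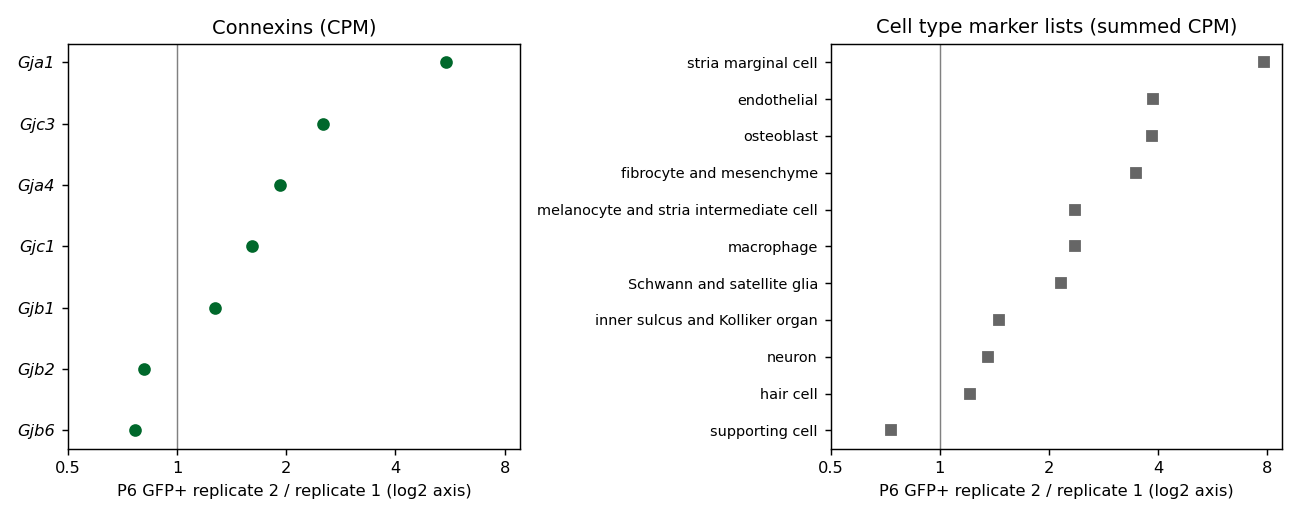
Ratio of P6 GFP+ replicate 2 to replicate 1 (log2 axis) for the CPM of 7 connexins (left) and for the summed CPM of 11 lists of cell type markers (right); each point is 1 gene or 1 list, and the line marks a ratio of 1. *Gja1* (5.50) and *Gjc3* (2.53) lie on the side of the glial, fibrocyte and stria lists, whereas *Gjb2* (0.809) and *Gjb6* (0.764) lie beside the supporting cell list (0.732).

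GFP+ cells of P6 and P1 were compared to follow supporting cells over the first postnatal week. *Gjb6* was the only member of 6 to pass, and it rose. Over all 17213 genes tested, 2.86% passed as higher and 1.95% as lower at P6. No member was past a 4-fold change with a call, as were 1.63% of genes upward and 0.93% downward. *Gjb6* went from 107 and 103 CPM at P1 to 404 and 309 CPM at P6, a log2 fold change of 1.86 ± 0.19 (p-adj = 0.00560 by edgeR). *Gjb2* went from 448 and 378 to 1222 and 989 CPM, with no overlap between the ages, and its log2 fold change of 1.51 ± 0.21 was just over the threshold (p-adj = 0.0110 by edgeR). Without P1 GFP+ replicate 2 no member passed, and the p-adj of *Gjb6* by edgeR was 0.0342, in a fit in which 137 of 18096 genes passed, against 828 with all 4 libraries. Without P6 GFP+ replicate 2, *Gjb2* (1.69 ± 0.11, p-adj = 2.50e-14 by edgeR), *Gjb6* and *Gjc3* passed as higher and *Gjc1* as lower, and without P6 GFP+ replicate 1, *Gja1* passed as higher too. In these fits 7531 of 17415 and 6404 of 18158 genes passed, and the remaining P6 library is assumed to vary as the P1 libraries do.

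The other members gave no call in GFP+ cells. *Gjc1* was at 28.6 and 27.3 CPM at P1 and at 8.27 and 13.3 CPM at P6, with a log2 fold change of -1.28 ± 0.25 (p-adj = 0.0252 by edgeR). *Gjc3* was at 8.97 and 4.74 CPM at P1 and at 24.9 and 63.1 CPM at P6, with a log2 fold change of 2.75 ± 0.53 (p-adj = 0.0260 by edgeR), and 1.93 ± 0.20 without P6 GFP+ replicate 2. The ages did not overlap for either gene. The log2 fold change of *Gja1* was 1.62 ± 0.75 (p-adj = 0.178 by edgeR), and -0.05 without P6 GFP+ replicate 2. The glia markers were at 435 and 368 summed CPM in the P1 GFP+ libraries and at 1207 and 2603 CPM in the P6 GFP+ libraries, so they were higher beside *Gjc3* in both P6 libraries. Their part was not tested. The log2 fold change of *Gjb1* was 0.38 ± 0.31 (p-adj = 0.409 by edgeR).

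In GFP- cells, *Gjb6* was again the only member of 6 to pass, and it rose with age. Over all 18920 genes tested, 5.04% passed as higher and 2.34% as lower at P6. No member was past a 4-fold change, as were 1.43% of genes upward and 0.418% downward. *Gjb6* went from 26.6 and 34.9 to 64.9 and 63.5 CPM, a log2 fold change of 1.25 ± 0.15 (p-adj = 0.00250 by edgeR), and did not pass when either P6 GFP- library was left out, in fits in which 249 of 19705 and 368 of 19543 genes passed, against 1397 with all 4 libraries. *Gjb2* went from 99.1 and 150 to 303 and 223 CPM, with a log2 fold change of 1.27 ± 0.23 (p-adj = 0.0119 by edgeR). *Gjc1* was at 87.1 and 63.2 CPM at P1 and at 41.0 and 43.7 CPM at P6, with a log2 fold change of -0.64 ± 0.16 (p-adj = 0.0379 by edgeR). *Gja1* (0.20 ± 0.24), *Gjc3* (0.17 ± 0.14) and *Gjb1* (0.65 ± 0.39 on the log2 scale) did not pass, with p-adj of 0.288 to 0.592 by edgeR. The lateral wall was separated off in the dissection at P1 and only partly removed at P6. Stria marginal cell markers were at 80.1 and 180 summed CPM at P1 and at 74.9 and 71.8 CPM at P6, and 0 of 4 passed. Markers of fibrocytes and mesenchyme went from 15191 and 13251 to 18148 and 17678 CPM, with 2 of 7 passing as higher. Melanocyte and stria intermediate cell markers went from 522 and 374 to 601 and 757 CPM, with 1 of 5 higher. Osteoblast markers went from 67.3 and 63.7 to 1167 and 1187 summed CPM. Age and the makeup of the GFP- fraction thus cannot be told apart here.

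**Figure D4:**
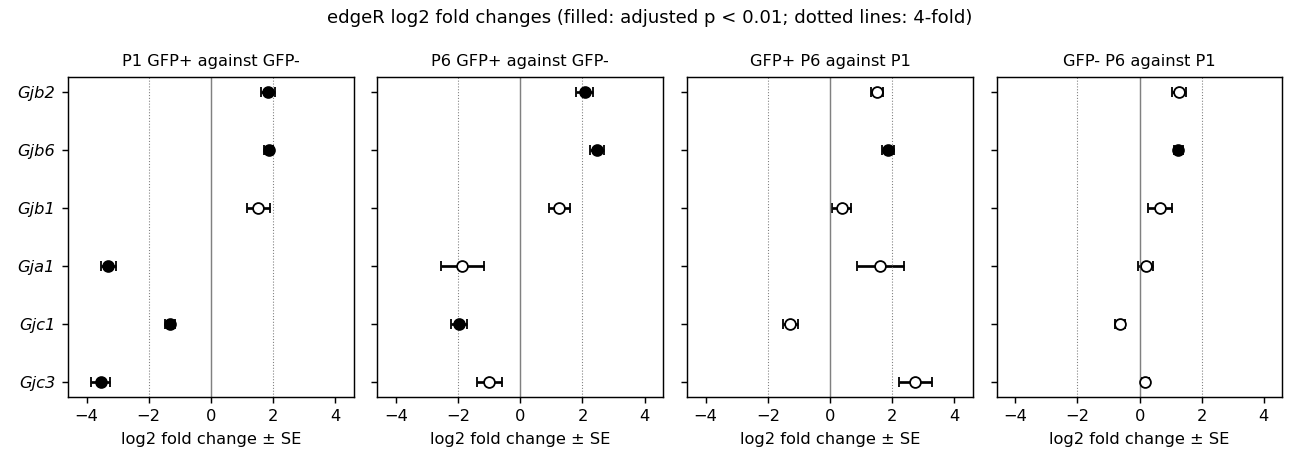
Log2 fold change ± SE from edgeR (horizontal axis) of the 6 tested connexins in the 4 comparisons, each on 2 libraries per group; filled points passed p and p-adj below 0.01, open points did not, and dotted lines mark a 4-fold change. *Gjb2* and *Gjb6* lie to the right in all 4 panels and *Gjc1* to the left in all 4, while *Gjc3* moves from -3.54 at P1 to -0.996 at P6 against GFP- cells.

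Whether the enrichment in GFP+ over GFP- cells changed from P1 to P6 was tested with an interaction term fitted to the 8 libraries. None of the 6 members passed by edgeR, 1 had an unadjusted p below 0.05, and DESeq2 called 1. Over all 19233 genes tested, 0.946% passed as higher and 0.988% as lower by edgeR. DESeq2 called 7.39% of them, and 4085 had an unadjusted p below 0.05 by edgeR. The member was *Gjc3* in both cases. Its log2 ratio of GFP+ to GFP- was higher at P6 by 2.55 ± 0.58 (p-adj = 0.0423 by edgeR, 0.000206 by DESeq2), and the difference was 1.74 ± 0.38 without P6 GFP+ replicate 2 (p-adj = 0.0192 by edgeR). The difference was 0.21 ± 0.37 for *Gjb2* and 0.59 ± 0.27 for *Gjb6* (p-adj = 0.798 and 0.255 by edgeR). *Gjc1* (-0.66 ± 0.31), *Gja1* (1.41 ± 0.83) and *Gjb1* (-0.28 ± 0.50) did not pass either. The 4 comparisons of groups share libraries with one another, so their values are set side by side without a test of overlap.

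*Gjb2* and *Gjb6* stayed in a narrow proportion. The ratio of *Gjb2* to *Gjb6* RPKM was 3.96 and 3.47 in the P1 GFP+ libraries, 3.52 and 4.04 in the P1 GFP- libraries, 2.85 and 3.02 in the P6 GFP+ libraries and 4.41 and 3.31 in the P6 GFP- libraries. The P6 GFP+ libraries had the lowest ratios of the 8. Over the 8 libraries the Pearson correlation of log2(CPM + 1) between the pair was 0.992, which made *Gjb6* the 6th most similar of 15273 genes to *Gjb2*, and *Gjb2* the 11th most similar to *Gjb6*. The libraries share 4 groups, so these values describe the pattern of group levels and were not tested. *Gjc1* had the opposite pattern, with a correlation of -0.995 to *Gjb6* and -0.989 to *Gjb2*.

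The genes most similar to each member by the same correlation were as follows. For *Gjb2* they were *Hk2*, a hexokinase (0.996), *Rasl11b* (0.994) and *Cd9*, a tetraspanin (0.994). For *Gjb6* they were *Bcam*, a laminin-binding adhesion molecule (0.996), *Cd9* (0.995) and *Ano1*, a calcium-activated chloride channel (0.994). For *Gjc3* they included *Art3* (0.995) and *Entpd1*, an ectonucleotidase (0.993). For *Gja1* they were *Rit2* (0.993), *Mtap1a*, a microtubule-associated protein gene (0.991), and *Ccdc85a* (0.991). For *Gjc1* they were *Ccdc50* (0.997), *Homer3* (0.996) and *Sf3b3*, a splicing factor (0.994), and for *Gjb1* they were *Plch1* (0.985), *Gng4* (0.983) and *Tmod1* (0.979). *Gjb5* was too low for this measure.

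The genes around the members were also examined. Within 100 kb of the *Gjb2* and *Gjb6* pair lie *Gja3*, a lens connexin, and *Gm4491*. *Gm4491* was at 3.75 and 4.26 CPM in P1 GFP+ and 1.00 and 0.697 CPM in P1 GFP- cells (2.35 ± 0.30 on the log2 scale, p-adj = 0.00117 by edgeR). At P6 it was at 3.15 and 2.11 CPM against 0.454 and 0.709 CPM. *Gja3* had 1 to 14 counts per library and passed in no comparison. Within 100 kb of *Gjb5* lies, among others, *Gja4*, which is described with the other connexins.

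Of the 13 other connexins, 6 were tested at P1 and 7 at P6. *Gjd2*, the connexin of electrical synapses between neurons, was lower in P1 GFP+ cells, at 0.188 ± 0.019 CPM against 2.13 ± 1.60 CPM in P1 GFP- cells (p-adj = 0.00872 by edgeR). Its counts were 38 and 206 in the P1 GFP- libraries, whose summed neuron markers were the 151 and 517 CPM given above. *Gja4*, known from vascular endothelium, was at 0.655 and 0.241 CPM in P1 GFP+ cells and at 2.93 and 5.62 CPM in P6 GFP+ cells (3.25 ± 0.58 on the log2 scale, p-adj = 0.0217 by edgeR). This change of *Gja4* did not pass. Over the fits that left out a library it ranged from 2.68 ± 0.46 (without P6 GFP+ replicate 2) to 4.24 ± 0.88 (without P1 GFP+ replicate 1). Endothelial markers were at 25.4 and 22.3 summed CPM in the P1 GFP+ and at 50.4 and 196 CPM in the P6 GFP+ libraries, with no marker at 0. Their part was not tested.

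Of 19 genes for scaffold, adherens junction, kinase and turnover partners of connexins, 5 were higher and 5 lower in P1 GFP+ cells, beside 16.6% and 20.7% of all genes, and the median log2 fold change was 0.01. The higher genes included *Cdh1*, E-cadherin, at 1779 and 1803 CPM against 187 and 202 CPM (3.31 ± 0.12, p-adj = 1.51e-05 by edgeR). *Ctnnd1*, *Prkcd* and *Ezr* were higher too. The lower genes were *Tjp1*, which encodes the scaffold that binds the tail of Cx43, at 260 and 251 CPM against 562 and 418 CPM (-0.84 ± 0.16, p-adj = 0.00624 by edgeR), and *Dbn1*, *Cav1*, *Cav2* and *Nov*. At P6, 3 of the 19 were higher, *Ctnnd1* and *Prkcd* among them, and *Dbn1* was lower, beside 7.72% and 5.19% of all genes. Between the ages in GFP+ cells *Cav2* rose and *Cdh1* fell, beside 2.86% and 1.95% of all genes. In GFP- cells *Cav2* and *Ezr* rose, beside 5.04% of all genes, and 2.34% fell. *Cav2*, a caveolin, was at 3.38 and 2.45 CPM in P1 GFP+ and at 15.7 and 25.1 CPM in P6 GFP+ cells. Its log2 difference was 2.51 ± 0.21 without P6 GFP+ replicate 2. The *Cav2* call in GFP+ cells was lost without P1 GFP+ replicate 2 (2.65 ± 0.49). Its call in GFP- cells was lost without P6 GFP- replicate 1 (1.56 ± 0.19).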

How the data were processed

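The authors deposited raw counts per Ensembl gene for 8 libraries of 100-base paired-end reads from poly(A) RNA. Per the labels, reads were aligned to mm9 with TopHat 1.4.0 (the methods name 1.4.1) and counted with HTSeq. The counting mode and the use of strand are not given in the sources used here. Counts were not normalized. Rows that name no gene (23.8% to 35.3% of counts) were left out.

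The members and gene lists were chosen with earlier results of these data known. CPM used the total of all genes, and RPKM the union exon length in the NCBIM37 annotation. Each comparison was fitted on its 4 libraries with edgeR 4.0.16 in R 4.3.3, using filterByExpr (minimum count 10, minimum total 15), TMM and quasi-likelihood tests, with p adjusted by Benjamini-Hochberg over all genes tested. A gene passed when p and p-adj were below 0.01. The SE is the log2 fold change over the root of its F value. The interaction of age and fraction used all 8 libraries. The procedure was tested on simulated data. Alternatives were DESeq2 1.42.0 and its size factors, library totals, no filter, all 8 libraries, a replicate block and leaving out each library. A crossed block was chosen after seeing the data. Named genes were the 7 members, their 3 most similar genes, neighbours within 100 kb, and list members that passed or exceeded 1 CPM in a group. *Gm4491* is the neighbour given at P6 although it did not pass there. Some genes that these rules select are not reported here.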

Additional observations from a re-analysis of the deposited data

Results flagged for a closer look

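Of the genes read from the interaction test, 2 of the 19 partners of connexins had a ratio of GFP+ to GFP- cells that differed between the ages. Both ratios were lower at P6. Of all 19233 genes, 0.988% passed as lower in this test and 0.946% as higher. *Cdh1*, which encodes E-cadherin, was at 1779 and 1803 CPM in P1 GFP+ cells and at 466 and 506 CPM in P6 GFP+ cells, against 187 and 202 CPM in P1 GFP- cells and 241 and 187 CPM in P6 GFP- cells. Its log2 ratio at P6 minus that at P1 was -2.15 (p-adj = 0.00332 by edgeR, over all 8 libraries). *Ezr*, which encodes the membrane and actin linker ezrin, was at 383 and 380 CPM in P1 GFP+ cells and at 233 and 245 CPM in P6 GFP+ cells, against 121 and 140 CPM and 216 and 191 CPM in the GFP- cells. Its difference was -1.45 (p-adj = 0.00678 by edgeR). Both genes lost the call under the replicate block and in 6 of the 8 fits that left out a library, with p-adj up to 0.0269 for *Cdh1* and 0.0495 for *Ezr* by edgeR. In those 6 fits 28 to 250 of all genes passed, against 372 with all 8 libraries.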

How the results depend on the processing

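With 2 libraries per group, each fit had few degrees of freedom. P1 calls were the steadiest: 2 to 3 members were higher and 2 to 3 lower when a library was left out. The 3rd higher member was *Gjb1*. Leaving out a library gave 0 to 3 higher and 0 to 3 lower members at P6, 0 to 4 higher and 0 to 1 lower in GFP+ cells with age, 0 to 2 higher and 0 to 1 lower in GFP- cells with age, and 0 to 2 higher in the interaction. In the same fits the genes that passed by edgeR numbered 3675 to 9798 at P1, 0 to 7765 at P6, 137 to 7531 and 249 to 3029 with age in GFP+ and GFP- cells, and 28 to 1407 in the interaction. With no library left out, edgeR with TMM and the filter passed 12.9% of all genes at P6 and 1.93% in the interaction. With age it passed 4.81% in GFP+ and 7.38% in GFP- cells. DESeq2's test gave 3 higher and 1 lower member in GFP+ cells with age, and 2 and 1 in GFP- cells with age. It gave 1 higher in the interaction. In that order it passed 17.6%, 16.1% and 7.39% of all genes. With no filter on low counts there were 3 lower at P6, and 4 higher and 1 lower in GFP+ cells with age. There were 2 and 1 in GFP- cells with age, and 2 higher in the interaction. In that order 20.0%, 15.6%, 14.8% and 8.45% of all genes passed. With all 8 libraries in the fit, 3 were higher and 1 lower in GFP+ cells with age, beside 12.3% of all genes. The replicate numbers did not pair the libraries: deviations of same-numbered libraries correlated at 0.022, 0.091, -0.083 and -0.258. With the replicate block, 2 members (*Gjb2* and *Gjb6*) were higher in GFP+ cells with age, beside 6.27% of all genes. No other count of members changed. A crossed block for GFP- cells gave 2 higher and 1 lower, beside 16.2% of all genes. Library totals moved the median of all genes by -0.10 at P1, -0.19 in GFP- cells with age and 0.12 in the interaction. Values that changed sign were all uncalled. Over the fits that left out a library, the log2 fold change of *Gja1* with age ranged from -0.054 (without P6 GFP+ replicate 2) to 2.34 in GFP+ cells and from -0.10 to 0.48 in GFP- cells, and in the interaction *Gja1* ranged from -0.29 to 2.11, *Gjb1* from -0.72 to 0.091 and *Gjb2* from -0.027 to 0.52. *Gjc3* with age in GFP- cells was -0.021 with library totals. The cause was not tested. At 0 to 4 counts *Gjb5* could not be compared.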

Other observations

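Pannexins, channel proteins related to connexins in topology but not in sequence, were also read. *Panx3*, known from osteoblasts and chondrocytes, was at 0.871 and 0.555 CPM in the P1 GFP- libraries and at 31.2 and 47.5 CPM in the P6 GFP- libraries. It rose with age in GFP- cells by a log2 fold change of 6.02 ± 0.31 (p-adj = 0.000131 by edgeR). All 6 osteoblast markers, such as *Ibsp* and *Sp7*, also rose in GFP- cells, from 67.3 and 63.7 to 1167 and 1187 summed CPM. *Panx3* was lower in GFP+ than in GFP- cells at P1 (-2.92 ± 0.60, p-adj = 0.00848 by edgeR) and at P6 (-3.05 ± 0.51, p-adj = 0.00956 by edgeR), and both calls were near the threshold. At P6 the difference was -4.07 ± 0.29 without P6 GFP+ replicate 2. In GFP+ cells *Panx3* was at 0.109 and 0.0402 CPM at P1 and at 2.31 and 7.03 CPM at P6, with a log2 fold change of 5.84 ± 0.80 that did not pass (p-adj = 0.0114 by edgeR) and was 4.83 ± 0.65 without P6 GFP+ replicate 2. The change with age did not differ detectably between the fractions (interaction -0.17 ± 1.47, p-adj = 0.969 by edgeR). The P1 call was lost without either P1 GFP+ library, with DESeq2's test and with all 8 libraries in the fit, and the P6 call without either P6 GFP- library and with library totals. *Panx1*, which forms a widely expressed ATP-releasing channel, went the other way from *Gjb2* and *Gjb6* in GFP+ cells, from 22.04 and 21.98 CPM at P1 to 6.87 and 7.70 CPM at P6, a log2 fold change of -1.50 ± 0.17 (p-adj = 0.00719 by edgeR). This call was lost without either P1 GFP+ library (p-adj = 0.0397 and 0.0768 by edgeR), in fits in which 770 of 17687 and 137 of 18096 genes passed, against 828 of 17213 with all 4 libraries. *Panx2* passed in none of the 4 comparisons.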
